A study of Mus musculus with 6 samples.

Results

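A group of 9 genes that code for transcription factors or their cofactors was followed in single cells of 5 mouse autonomic ganglia: *Mecom*, *Gata5*, *Bnc2*, *Zbtb16*, *Zfpm2*, *Foxp1*, *Foxp2*, *Id4* and *Etv1*. They were chosen because their transcripts had been seen in some clusters of pelvic neurons and not in others, and they were found by symbol as 9 of the 32285 genes of the count matrices. Their levels by pelvic cluster are therefore given as a description, with no test.

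The pelvic ganglion is the autonomic relay of the bladder, rectum and sex organs, and it mixes noradrenergic neurons, which express the synthetic enzymes tyrosine hydroxylase (*Th*) and dopamine beta-hydroxylase (*Dbh*), with cholinergic neurons, which express choline acetyltransferase (*Chat*) and the vesicular transporter *Slc18a3*. Subtypes of neurons are commonly told apart by combinations of transcription factors, which switch on or silence the genes of a given phenotype. Among the 9 genes, *Gata5* codes for a zinc-finger factor of the GATA family, and *Zfpm2* (also called Fog2) for a cofactor that binds GATA proteins. *Mecom*, *Bnc2* and *Zbtb16* code for zinc-finger proteins, of which Zbtb16 is a BTB-domain repressor. *Foxp1* and *Foxp2* belong to the forkhead family and *Etv1* to the ETS family, and Id4 dimerizes with basic helix-loop-helix factors and keeps them off DNA.

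The cells came from untreated pups of both sexes at postnatal day 5, all of 1 genotype, which carried a BAC transgene for Cre and the *RosatdT* reporter. The ganglia were the stellate ganglion, the lumbar chain and the coeliac complex (sympathetic), the pelvic ganglion and the parasympathetic sphenopalatine ganglion. Each gave 1 library except the pelvic ganglion, which gave 2, so that 6 libraries were counted. Round 1 held the stellate, sphenopalatine and pelvic_1 libraries (chemistry version 2), and round 2 the coeliac, lumbar and pelvic_2 libraries (version 3).

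The matrices held between 39353313 and 113352559 UMIs per library, a UMI (unique molecular identifier) being 1 tagged RNA molecule, and 21442 droplets were retained, of which 7014 were neurons. Median depth of pelvic neurons was 39468 UMIs in pelvic_1 and 108442 in pelvic_2, so that a share of neurons with a transcript is expected to be larger in pelvic_2 at the same level. Levels are given as CPM, the UMIs of a gene in the summed cells of a group scaled to a common total. Shares carry 95% Wilson intervals. Where no UMI was found, the limit of 3 counts is given, which bounds the neurons with a UMI and not those expressing the gene. Intervals and limits cover counting error only. Libraries of the same round shared 9 to 94 droplet barcodes, and removing the shared ones changed none of the calls of the 9 genes. Over all genes it moved the calls in fibroblast-like cells from 134 to 138. The 1244 pelvic neurons fell into 6 clusters. Following the marker genes that the study lists for its clusters P1 to P4, they were P1-like (269 neurons in pelvic_1 and 160 in pelvic_2), a second P1-like cluster led by *Sv2b* and *Gng8* (71 and 20, called P1-like Gng8-high), P2-like (344 and 100), P3-like (129 and 33) and P4-like (45 and 28). A last cluster of 18 and 27 neurons was led by collagen genes and left unnamed. P3-like neurons were noradrenergic (*Th* at 508.6 ± 9.13 CPM, SD, n = 2 libraries, against at most 1.67 in the other named clusters), and the others expressed *Slc18a3* at 196.4 to 615.7 CPM on average against 4.56 in P3-like neurons.

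Windows at a listed start site of *Gata5*, *Mecom*, *Bnc2* and *Id4* are shown. Among the named clusters, the highest levels of these genes fell in the P2-like, P3-like and P4-like ones. Each runs from 250 bases before to 50 bases after the start site (RefSeq, GRCm38.p6), 5′ to 3′ on the strand of the gene, with E-boxes (CANNTG, the sites of basic helix-loop-helix factors) in capitals.
*Gata5*, chr2:180334630-180334929, minus strand: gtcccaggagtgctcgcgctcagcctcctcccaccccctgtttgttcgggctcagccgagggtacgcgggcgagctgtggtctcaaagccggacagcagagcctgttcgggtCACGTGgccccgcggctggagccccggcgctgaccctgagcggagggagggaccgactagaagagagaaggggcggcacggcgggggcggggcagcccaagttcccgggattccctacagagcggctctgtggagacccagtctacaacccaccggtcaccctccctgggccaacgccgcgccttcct
*Mecom*, chr3:30509710-30510009, minus strand: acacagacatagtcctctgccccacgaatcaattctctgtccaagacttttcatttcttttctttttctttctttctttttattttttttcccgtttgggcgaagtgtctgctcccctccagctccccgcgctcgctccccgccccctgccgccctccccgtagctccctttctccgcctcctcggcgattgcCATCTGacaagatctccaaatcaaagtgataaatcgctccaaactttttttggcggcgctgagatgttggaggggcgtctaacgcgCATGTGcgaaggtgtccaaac
*Bnc2*, chr4:84610148-84610447, minus strand: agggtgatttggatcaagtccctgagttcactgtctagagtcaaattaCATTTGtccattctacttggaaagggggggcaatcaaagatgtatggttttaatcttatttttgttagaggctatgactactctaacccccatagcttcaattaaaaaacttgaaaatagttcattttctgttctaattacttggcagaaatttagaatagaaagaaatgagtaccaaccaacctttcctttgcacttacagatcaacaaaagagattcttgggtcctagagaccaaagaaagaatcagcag
*Id4*, chr13:48260866-48261165, plus strand: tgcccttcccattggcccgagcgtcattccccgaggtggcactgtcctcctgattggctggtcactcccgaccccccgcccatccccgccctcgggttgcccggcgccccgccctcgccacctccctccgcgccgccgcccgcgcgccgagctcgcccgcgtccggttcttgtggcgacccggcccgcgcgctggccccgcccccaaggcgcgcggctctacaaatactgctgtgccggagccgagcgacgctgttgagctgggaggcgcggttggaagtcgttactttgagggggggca
The windows of *Gata5* and *Id4* were rich in G and C (69.7% and 73.3%, with 26 and 39 CpG dinucleotides). That of *Mecom* had 52.0% and 19 CpG, close to the median of 52.7% over 32851 promoters, and that of *Bnc2* had 36.3% and no CpG. The *Mecom* and *Bnc2* windows lie inside the annotated genes, whose upstream ends are at 30548008 on chr3 and 84675275 on chr4. Whether the *Bnc2* window is a promoter was not tested, and its base composition is not read as that of one. An E-box stood once in *Gata5*, once in *Bnc2*, at 2 places in this *Mecom* window and not in *Id4*, and 72.3% of all promoters hold at least 1. A second start site listed for *Mecom* (chr3:30013155-30013454) had none, with 49.7% G and C and 9 CpG. Other motifs were searched on both strands, AGATAA for GATA factors (in 11.2% of all promoters), GTAAACA for forkhead factors (3.65%) and CCGGAA for ETS factors (14.9%), and these letters were not found in the 10 windows listed for 6 of the 9 genes. Other forms of these motifs were not searched, so a lack of sites is not read from this.

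*Mecom* and *Zfpm2* marked the noradrenergic P3-like cluster. *Mecom* (chr3:29951296-30548008, GRCm38), known as a regulator of blood stem cells and endothelium, reached 51.0 CPM in P3-like neurons of pelvic_1 and 45.6 CPM in those of pelvic_2. It was found in 71.3% (63.0 to 78.4%) and 90.9% (76.4 to 96.9%) of these neurons. P4-like neurons had no *Mecom* UMI in either library (0 of 45 and 0 of 28 neurons, which allows up to 6.67% and 10.7% of neurons with a UMI), so the level in P3-like neurons was at least 32.1-fold and 47.2-fold higher. Among the named clusters P1-like neurons came next, with 6.43 CPM in pelvic_1 and 1.26 CPM in pelvic_2, in 11.5% and 7.50% of neurons. The Poisson intervals of these 2 values did not overlap, and the P3-like level exceeded them 7.93-fold and 36.3-fold. Every other named cluster had at most 0.350 CPM. The unnamed cluster led by collagen genes had 12.8 ± 3.43 CPM (SD, n = 2 libraries), with a UMI in 15.6% of its 45 neurons.

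*Zfpm2* (chr15:40655035-41104592) stood at 14.4 CPM in P3-like neurons of pelvic_1 and at 29.9 CPM in those of pelvic_2, and at no more than 0.672 CPM in any other named cluster. It was detected in 39.5% and 87.9% of P3-like neurons. After each neuron was thinned to 4000 UMIs the shares were 5.43% and 6.06%, from 7 and 2 neurons, too few to compare. Among neurons of the other ganglia it was a sympathetic transcript, at 39.0 CPM in the coeliac, 37.6 CPM in the lumbar and 14.2 CPM in the stellate neurons against 0.517 CPM in the sphenopalatine ones. Coeliac and lumbar values had overlapping intervals. The P3-like value of pelvic_1 overlapped with the stellate (11.3 to 18.1 against 13.3 to 15.0 CPM), whereas that of pelvic_2 lay above it (24.7 to 36.0 CPM). Stellate and pelvic_1 were of round 1 and the coeliac, lumbar and pelvic_2 libraries of round 2. Ganglion and round cannot be told apart where stellate values are set against those of round 2. In glial cells too, *Zfpm2* stood at 3.15 to 6.49 CPM in round 1 and at 8.73 to 11.2 CPM in round 2. Among sympathetic neurons it was lower in those with 2 or more UMIs of the cholinergic gene *Slc18a3*: 3.34 CPM in 79 stellate neurons against 14.6 CPM in the other 2637, and 27.1 CPM in 174 lumbar neurons against 41.1 CPM in the other 756. These neurons were no pure cholinergic class, since *Th* stood at 632.9 CPM in the stellate ones (1011 CPM in the others) and at 417.5 CPM in the lumbar ones (462.6 CPM in the others). They were also deeper, with a median of 43089 against 26158 UMIs in stellate and 102096 against 62768 in lumbar neurons, and the part of depth was not tested. Over the 10 pelvic cluster sums and 4 ganglia, *Kitl* (Pearson r = 0.97) and *Th* (r = 0.96) were among the genes whose log2(CPM + 1) was most like that of *Zfpm2*, as a description of sums that share libraries and depth. Those most like *Mecom* were *S100a6*, *Slc38a4* and *Gpr149* (r = 0.93 each), the last of which is a marker that named the P3-like cluster.

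*Gata5* belonged to the P2-like cluster. *Gata5* (chr2:180325133-180334699) had 6.50 CPM in P2-like neurons of pelvic_1 and 11.2 CPM in those of pelvic_2. P1-like and P4-like neurons had between 0 and 0.529 CPM, and P3-like and Gng8-high neurons had no UMI. The unnamed cluster led by collagen genes had 3.82 ± 0.488 CPM (SD, n = 2 libraries), from 5 UMIs. In P3-like neurons 0 of 129 and 0 of 33 had a UMI, which allows up to 2.33% and 9.09% of neurons with one, and the P2-like level was at least 11.1-fold and 14.1-fold higher. It was present in 20.9% (17.0 to 25.5%) of P2-like neurons in pelvic_1 and in 53.0% (43.3 to 62.5%) in pelvic_2. With every neuron thinned to 4000 UMIs these shares became 2.03% and 2.06%, from 7 and 2 neurons, and a difference between the libraries was not detectable at that depth. In neurons of the other ganglia there was next to none: 0 UMIs in 2716 stellate and 1887 sphenopalatine neurons, 6 UMIs in 930 lumbar and 1 UMI in 237 coeliac neurons. The genes with the pattern most like it were *Grp* and *Grin2c*, both P2-like markers (r = 0.90 each), and *Macrod2* (r = 0.89).

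Among the named clusters, *Id4* and *Bnc2* were highest in P4-like neurons. *Id4* (chr13:48261228-48266026) reached 348.2 CPM in pelvic_1 and 471.1 CPM in pelvic_2, in 100% of P4-like neurons of both libraries. P2-like neurons followed at 60.7 and 71.9 CPM, P1-like neurons at 27.9 and 43.7 CPM, and Gng8-high neurons at 16.2 and 27.8 CPM. The noradrenergic P3-like neurons had the lowest values, 3.50 and 2.12 CPM. The P4-like level was 5.74-fold and 6.55-fold that of P2-like neurons and 99.4-fold and 222.4-fold that of P3-like neurons. In the other ganglia *Id4* stood at 19.5 CPM in coeliac, 10.9 in sphenopalatine, 9.99 in lumbar and 4.52 in stellate neurons, with overlapping intervals for the sphenopalatine and lumbar values and for the stellate and P3-like ones. Its nearest patterns were those of *Rai14* (r = 0.97), *Txnip* (r = 0.95) and *Rarb*, a retinoic acid receptor (r = 0.93).

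*Bnc2* (chr4:84275095-84675275) had 30.2 and 32.2 CPM in P4-like neurons, 10.3 and 10.98 CPM in P1-like neurons and 8.24 and 3.75 CPM in Gng8-high neurons, in pelvic_1 and pelvic_2 respectively. P2-like neurons had 1.54 and 2.02 CPM, and P3-like neurons 2 UMIs in pelvic_1 and none in pelvic_2. The unnamed cluster led by collagen genes had a higher mean than P4-like neurons, 43.7 ± 26.5 CPM (SD, n = 2 libraries). The P4-like level was 2.92-fold and 2.93-fold that of P1-like neurons. Both P4-like values lay above the sphenopalatine level of 20.7 CPM (47.5% of neurons), which was in turn above P1-like neurons. Lumbar, stellate and coeliac neurons had 2.93, 0.682 and 0.501 CPM. The other ganglia were not split into clusters, and in the lumbar chain 44 neurons had a *Bnc2* UMI and 886 had none. *Skap1* was the gene with the pattern most like it (r = 0.94), before *Tafa2* and *Ldb2* (r = 0.89 each).

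Among the named pelvic clusters, though not under every setting, *Etv1* and *Zbtb16* were highest in Gng8-high neurons. *Etv1* (chr12:38779380-38870484) was found in all of these neurons, at 340.1 CPM in pelvic_1 and 366.5 CPM in pelvic_2. It was also abundant in P3-like neurons (194.5 and 257.7 CPM) and P1-like neurons (142.5 and 165.5 CPM), and low in P4-like (54.5 and 33.4 CPM) and P2-like neurons (33.4 and 29.9 CPM). The last 2 clusters overlapped with the other ganglia, whose levels spanned 30.9 to 44.4 CPM. *Etv1* therefore split the pelvic ganglion across its transmitter types, since a noradrenergic and 2 cholinergic clusters were high and 2 cholinergic clusters low. Among the named clusters, its relatives *Etv4* and *Etv5* were also highest on average in Gng8-high neurons, at 6.96 ± 1.21 and 21.8 ± 0.724 CPM (SD, n = 2 libraries). The unnamed cluster led by collagen genes had a higher mean of *Etv4*, 9.71 ± 13.7 CPM. Fibroblast-like cells had medians of 75.6 CPM for *Etv4* and 39.7 CPM for *Etv5*. The pattern most like that of *Etv1* was that of *Plcl2* (r = 0.90), before *Afap1l1* (r = 0.87) and *Fstl5* (r = 0.82).

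*Zbtb16* (chr9:48654297-48836222), known for its part in stem cell maintenance and innate-like T cells, had 4.27 CPM in Gng8-high neurons of pelvic_1 and 14.4 CPM in those of pelvic_2. P1-like neurons had 1.96 and 4.33 CPM, and P3-like neurons none. P4-like neurons differed most between the libraries: 0 of 45 had the transcript in pelvic_1 and 18 of 28 in pelvic_2 (9.33 CPM). In pelvic_2 the Gng8-high level was only 1.54-fold the P4-like one, from 46 and 29 UMIs. In every cluster with a UMI the value of pelvic_2 was the higher, and round, chemistry, depth and pups cannot be told apart there. The sphenopalatine library, of round 1, had 7.67 CPM in 24.0% of neurons, with an interval (7.06 to 8.32 CPM) that overlapped with that of Gng8-high neurons of the same round (2.34 to 7.17 CPM). Lumbar, coeliac and stellate neurons had 0.704, 0.501 and 0.303 CPM. *Zfp804a* (r = 0.87), *Adamtsl1* (r = 0.85) and *Bst2* (r = 0.84) were most like it.

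*Foxp1* and *Foxp2* went against their selection. *Foxp1* (chr6:98925338-99522721) was present in every named pelvic cluster, between 24.7 and 44.4 CPM over their 10 sums. The highest named cluster was P2-like in both libraries, but only 1.42-fold and 1.05-fold above P4-like neurons. In the unnamed cluster led by collagen genes it stood at 56.0 ± 3.15 CPM (SD, n = 2 libraries). It was higher in sympathetic ganglia, at 166.7 CPM in lumbar, 134.8 CPM in stellate and 92.4 CPM in coeliac neurons, whose intervals did not overlap, and stood at 33.4 CPM in the sphenopalatine, within the pelvic range. Stellate neurons with 2 or more *Slc18a3* UMIs had 54.9 CPM against 138.2 CPM in the others, and lumbar ones 79.5 against 195.5 CPM. The noradrenergic P3-like neurons, at 38.0 and 27.0 CPM, did not share the sympathetic level. *Vstm2b* (r = 0.96), *Slc30a3* (r = 0.95) and *Fam20a* (r = 0.93) had the most similar patterns.

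*Foxp2* (chr6:14901349-15441977) was nearly absent from neurons. No named cluster held more than 5 UMIs of it or reached 1 CPM in either library, and P3-like and Gng8-high neurons had none. The other ganglia had 0.0966 to 0.225 CPM. It was detected instead in the unnamed collagen-bearing cluster, at 9.71 and 13.9 CPM. In that cluster the 5 fibroblast markers (*Col1a1*, *Col1a2*, *Dcn*, *Lum*, *Pdgfra*) summed to 4412 and 3256 CPM, against 41.5 to 84.7 CPM in the named clusters. Pelvic neurons with 10 or more UMIs of these markers had 4.44 and 2.42 CPM of *Foxp2* (40 and 53 neurons). Those with 1 to 9 had 0.236 and 0.0655 CPM (705 and 283 neurons), and those without any had no *Foxp2* UMI (131 and 32 neurons). At so low a level the last groups are too small for 0 UMIs to show absence. Lumbar, stellate and sphenopalatine neurons without these markers held 1, 2 and 1 *Foxp2* UMIs. Restriction of *Foxp2* to a named neuron cluster was thus not seen. At these levels its likeness to *Tmem150a* (r = 0.80), *Nosip* (r = 0.78) and *Jakmip1* (r = 0.77) rests on few UMIs.

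**Figure D1:**
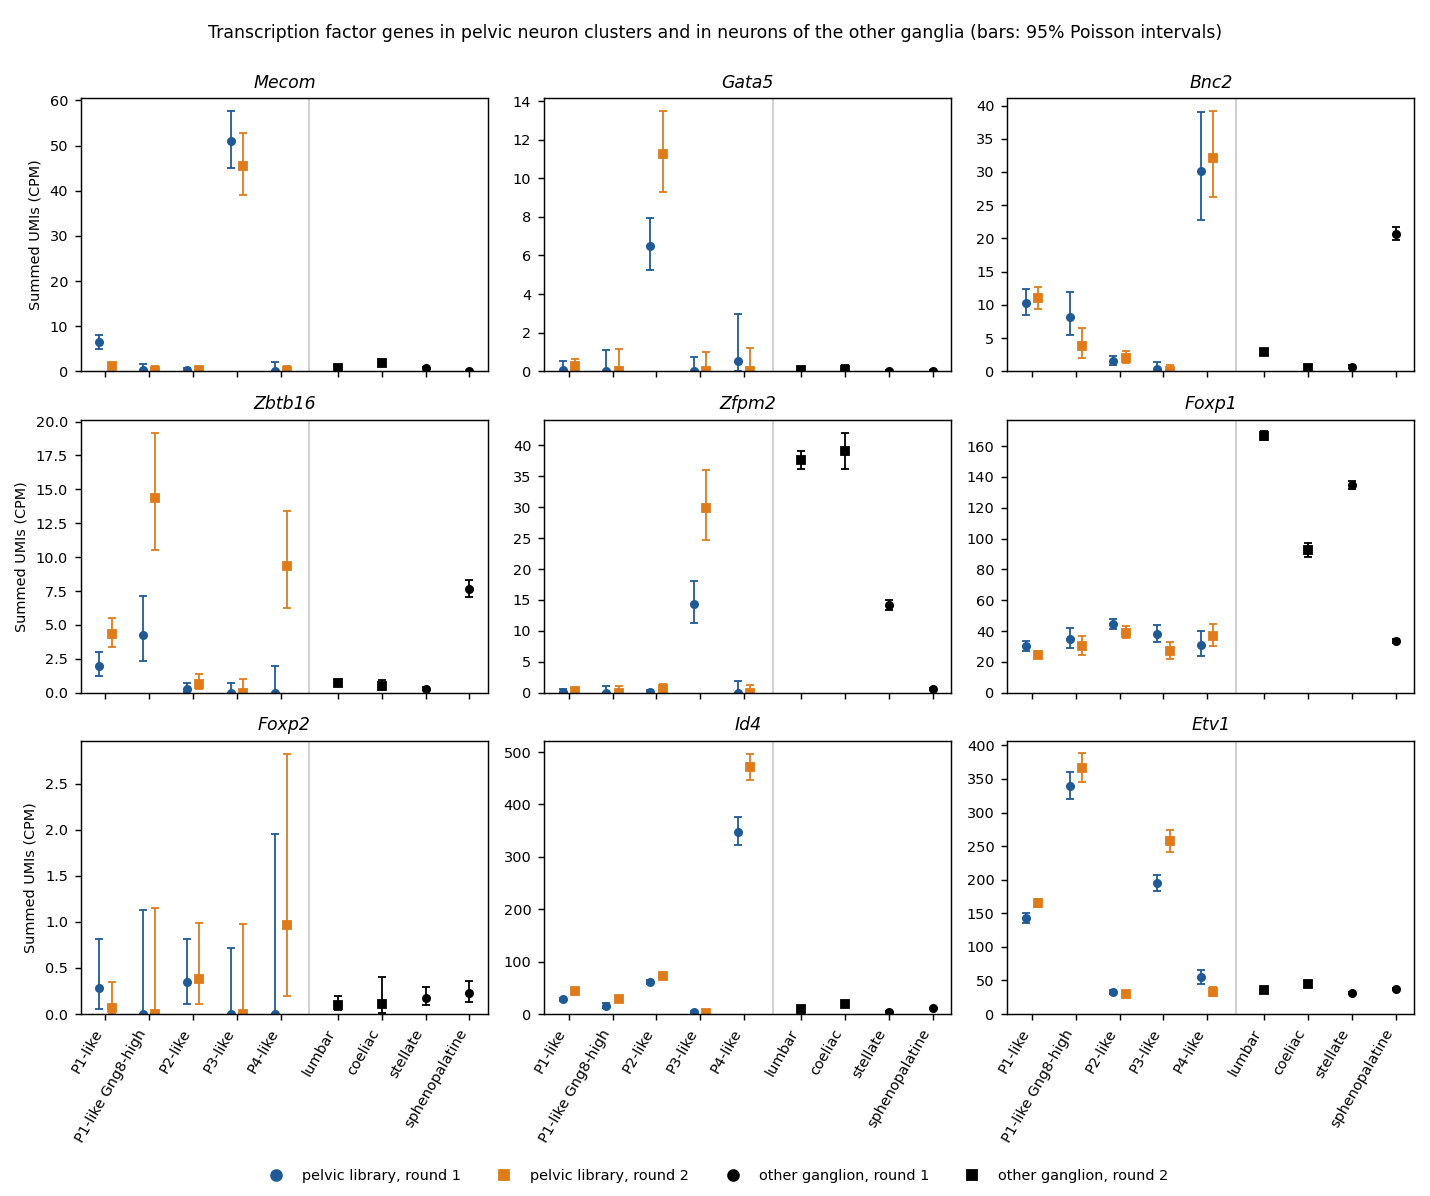
Level of each of the 9 genes (CPM, linear axis, scale set per gene) in the 5 named pelvic clusters, with 1 point per library, and in neurons of the other 4 ganglia, 1 library each; bars are 95% Poisson intervals. *Mecom* peaks in P3-like neurons at 51.0 and 45.6 CPM, *Gata5* in P2-like neurons at 6.50 and 11.2 CPM and *Id4* in P4-like neurons at 348.2 and 471.1 CPM, while *Foxp1* is highest in the sympathetic ganglia and *Foxp2* stays below 1 CPM.

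**Figure D2:**
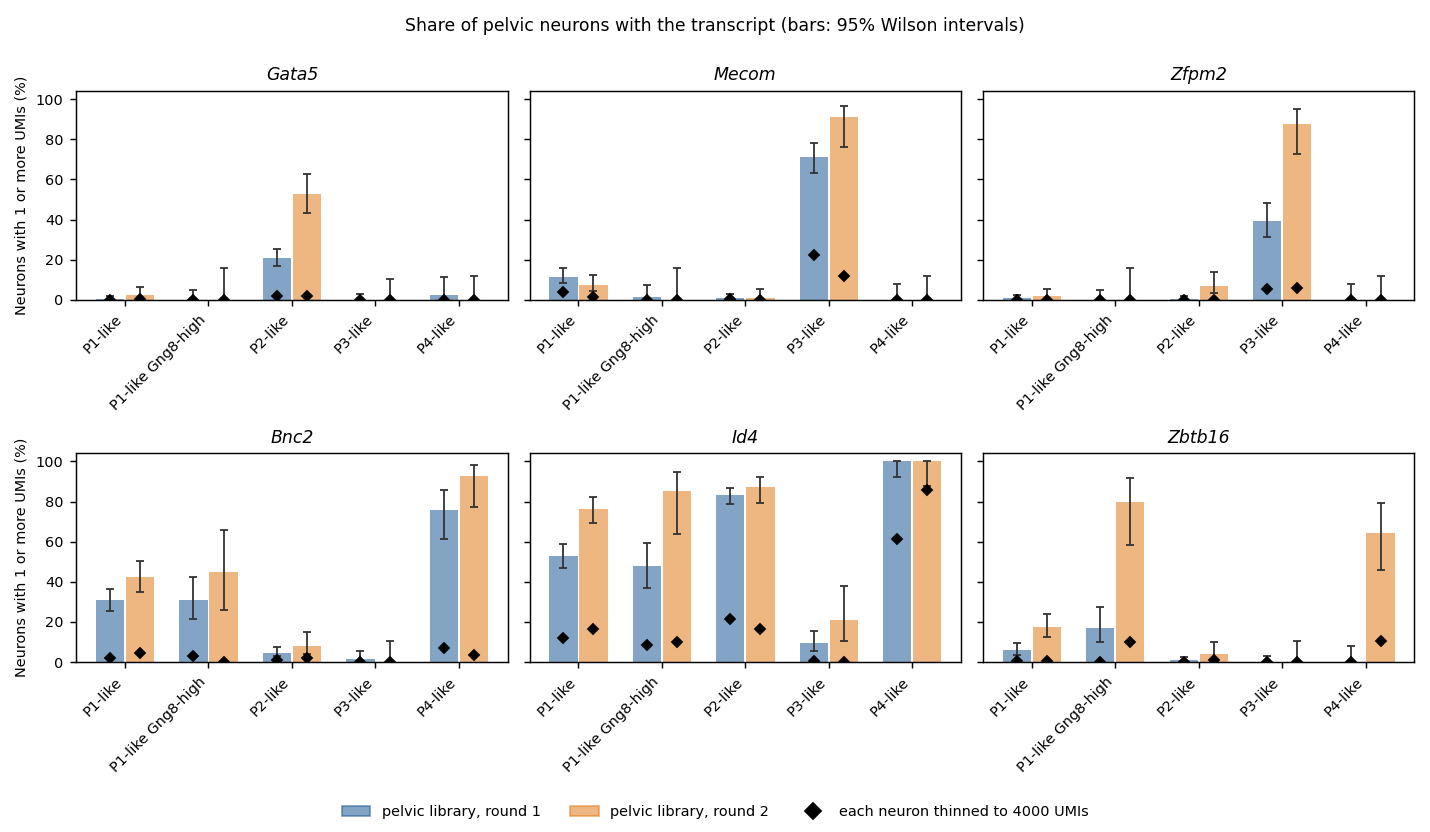
Share of neurons with at least 1 UMI (%, bars, with 95% Wilson intervals) of 6 of the genes in the named pelvic clusters, for the round 1 and round 2 libraries; diamonds give the share after each neuron was thinned to 4000 UMIs. Full shares of *Gata5* in P2-like neurons are 20.9% and 53.0%, and the diamonds stand at 2.03% and 2.06%.

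For 8 of the 9 genes the highest named pelvic cluster was the same in both libraries, the exception being *Foxp2*, against 35.3% of the 24147 genes with a UMI in these neurons and 55.1% of the 10119 that reached 10 CPM. Without the correction between libraries the P4-like neurons merged with the P2-like cluster, and the highest cluster became P2-like for *Id4*, P1-like for *Bnc2* and *Zbtb16* and P3-like for *Etv1*. For 7 of 9 a pelvic cluster had the highest mean level of all 9 neuron groups, against 48% of the 24147 genes, the exceptions being *Zfpm2* and *Foxp1*, highest in coeliac and lumbar neurons. Among the 7, *Foxp2* was placed by 3 UMIs in P4-like neurons of pelvic_2. *Zbtb16* had the higher level in sphenopalatine neurons when round 1 alone was read. Each of the other ganglia stood as 1 level over all its neurons, whereas the pelvic ganglion was split into clusters. Nothing about the genes is read from these counts, since pelvic detection chose them. The combinations in this clustering are given as a description, since the genes were chosen for detection in some pelvic clusters and not others. P3-like neurons had *Mecom*, *Zfpm2* and *Etv1* with little *Id4*, P2-like neurons *Gata5* and a middle level of *Id4* with little *Etv1*, P4-like neurons *Id4* and *Bnc2*, and P1-like neurons *Etv1* with a lower level of *Bnc2*.

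The relatives and partners of these genes, a list of 17, were compared in the same clusters. *Gata2* and *Gata3*, known for their part in sympathetic differentiation, were more widespread than *Gata5*. *Gata2* was highest in P3-like neurons (227.2 ± 19.6 CPM, SD, n = 2) and had 77.5 ± 0.646 CPM in P2-like neurons. *Gata3* was similar in the P2-like (244.5 ± 0.938 CPM) and P3-like clusters (238.1 ± 3.36 CPM) and lowest in P4-like neurons (44.7 ± 2.69 CPM). *Gata1*, *Gata4* and *Bnc1* had no UMI in the named pelvic clusters. *Zfpm1*, the other cofactor of GATA proteins, did not follow *Zfpm2*: it had 41.1 ± 19.2 CPM in P2-like and 31.8 ± 15.3 CPM in P3-like neurons. *Prdm16*, the closest relative of *Mecom*, had 5.97 ± 0.205 CPM in P4-like neurons, where *Mecom* was not detected. In P3-like neurons *Prdm16* had 2.46 ± 0.104 CPM. Glial cells had a median of 42.0 CPM of it. The 5 glial markers summed to 299 and 302.3 CPM in P4-like neurons of pelvic_1 and pelvic_2. They summed to 176.2 and 142.9 CPM in P2-like neurons and to 17.2 to 68.3 CPM in the other named clusters. The part of glial RNA in the *Prdm16* values was not tested. The Id genes other than *Id4* had their lowest mean in P4-like neurons, *Id1* at 53.7 ± 14.6 CPM against 105.8 to 189.9 CPM in the other named clusters and *Id3* at 28.2 ± 4.70 CPM against 44.2 to 92.4 CPM. *Id2* stood at 34.5 ± 3.93 CPM against 48.6 to 67.1 CPM, but in pelvic_1 Gng8-high neurons were the lower (25.9 against 31.8 CPM, with overlapping intervals).

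Within clusters, the detection of 1 gene was split by the detection of another, over 36 pairs and the 145 combinations of pair and group with at least 10 neurons on each side. A split seen in both libraries was that of P2-like neurons by *Gata5*. *Etv1* was found in 29.2% (19.9 to 40.5%) of the 72 *Gata5*-positive neurons of pelvic_1 and in 44.1% (38.3 to 50.1%) of the 272 others. In pelvic_2 the shares were 20.8% (12 to 33.5%) of 53 and 59.6% (45.3 to 72.4%) of 47. The level of *Etv1* was 15.3 against 38.6 CPM in pelvic_1 and 5.17 against 72.1 CPM in pelvic_2. Median depth was 40932 UMIs in *Gata5*-positive neurons against 39101 in the others of pelvic_1, and 121180 against 89963 in pelvic_2. The pair was picked for its size among the 145 combinations and the split carries no test.

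The pairs that follow were also picked among the 145 combinations and carry no test. In P1-like neurons, *Bnc2* was detected more often where *Mecom* was. *Bnc2* was detected in 58.1% of the 31 *Mecom*-positive neurons of pelvic_1 against 27.3% of the other 238, and in 83.3% of 12 against 39.2% of 148 in pelvic_2. Median depths were alike (35847 and 36348 UMIs in pelvic_1, 106754 and 104345 in pelvic_2). Depth varied widely within P1-like neurons of pelvic_2, with a median of 6723 UMIs in the 45 without *Foxp1* and 129290 in the 115 with it. The part of depth in these shares was not tested. *Id4* was rarer in *Mecom*-positive P1-like neurons of pelvic_1 (22.6% against 56.7%) and about as frequent in pelvic_2 (75% against 76.4%), where its level was still the lower (25.8 against 45.3 CPM). In lumbar neurons *Zfpm2* was found in 20.5% of the 44 with *Bnc2* and in 85.1% of the other 886. In sphenopalatine neurons *Etv1* was found in 41.8% of the 452 with *Zbtb16* and in 26.5% of the other 1435, at median depths of 43009 and 36652 UMIs.

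**Figure D3:**
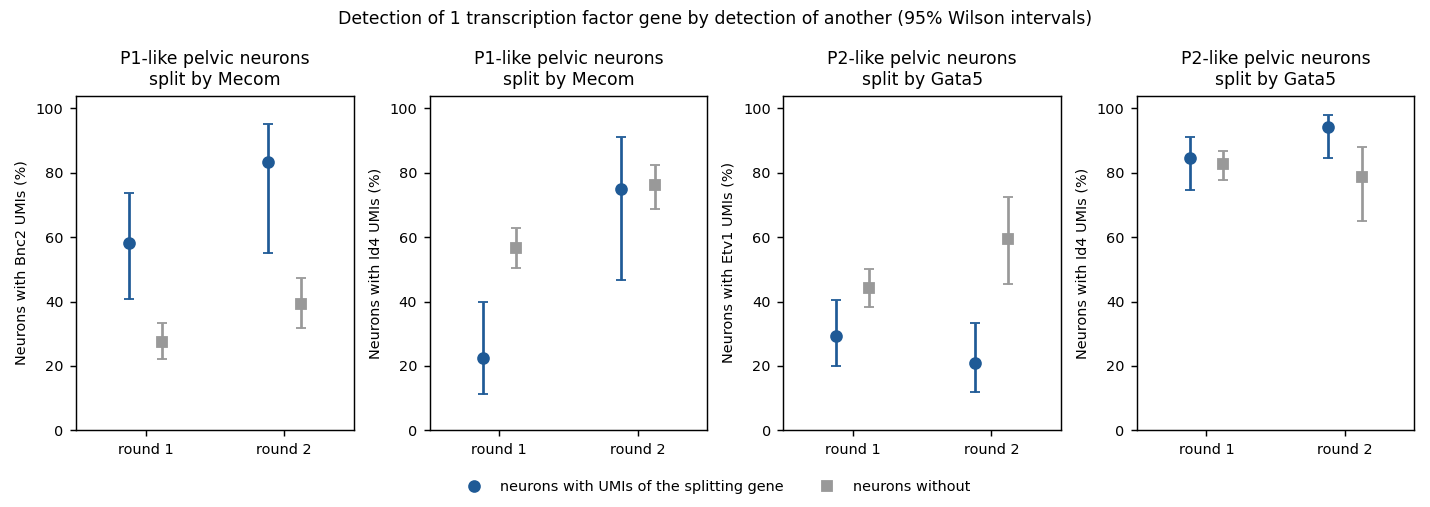
Share of neurons with a second gene (%, linear axis from 0) among neurons with (circles) and without (squares) a splitting gene, in P1-like neurons split by *Mecom* and P2-like neurons split by *Gata5*, in each round; bars are 95% Wilson intervals. *Etv1* is less frequent in *Gata5*-positive P2-like neurons in both rounds (29.2% against 44.1%, and 20.8% against 59.6%), whereas the *Id4* split by *Mecom* is seen in round 1 alone.

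Outside neurons, 4 of the 9 genes were higher in a non-neuronal class than in every neuron group, by the median over libraries with at least 20 cells, against 41.4% of the 24147 genes. The classes were named from marker genes that do not include the 9. *Mecom* in endothelial-like cells, whose defining markers include *Pecam1* and *Cdh5*, had 119.4 CPM in pelvic_1, 179.5 in pelvic_2, 172.1 in lumbar, 246.0 in coeliac, 68.4 in stellate and 112 in sphenopalatine libraries. All 6 values exceeded both P3-like values. In the other named classes *Mecom* was at or below 12.5 CPM in every library. *Foxp1* was also highest in endothelial-like cells, from 208.3 to 415.8 CPM with a median of 313.1, above the lumbar neurons in all 6 libraries.

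*Bnc2* and *Foxp2* were higher in fibroblast-like cells than in every named neuron group. *Bnc2* ranged from 64.4 CPM in stellate to 161.8 CPM in pelvic_2 fibroblast-like cells, with a median of 109.7 CPM, and all 6 values exceeded those of P4-like neurons. *Foxp2* ranged from 30.9 to 62.5 CPM (median 43.3) in the same cells and from 17.4 to 46.7 CPM in a cluster that carried both fibroblast and mesothelial markers. *Etv1* in fibroblast-like cells ranged from 51.7 to 143.7 CPM, below P1-like, P3-like and Gng8-high neurons by its median of 91.9 CPM. All 6 values were above those of neurons of the other ganglia (30.9 to 44.4 CPM). *Id4* in smooth-muscle-like cells varied widely, from 17.9 CPM in stellate to 188.8 CPM in pelvic_2. *Zfpm2* ranged from 0 to 46.3 CPM (median 10.1) in the cluster with fibroblast and mesothelial markers, highest in coeliac. In an unnamed cluster with *Chga* and *Insm1* among its leading genes it ranged from 8.13 to 65.7 CPM (median 34.8).

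*Gata5* UMIs were few in non-neuronal cells. In the cluster of fibroblast and mesothelial markers, its 8 UMIs all fell in the 21 cells that had at least 2 of the 4 mesothelial markers (*Msln*, *Upk3b*, *Wt1*, *Lrrn4*), 20.7 CPM in these cells, and none in the other 748. The remaining 13436 droplets that did not pass the neuronal marker threshold held 7 UMIs. Not all of these need be non-neuronal. They include the cluster with *Chga* and *Insm1*, which had *Th* at 249.3 to 901.4 CPM, and an unnamed cluster of 317 droplets led by *Calcb* and *Slc5a7*. The split by mesothelial markers was made after the values were seen.

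**Figure D4:**
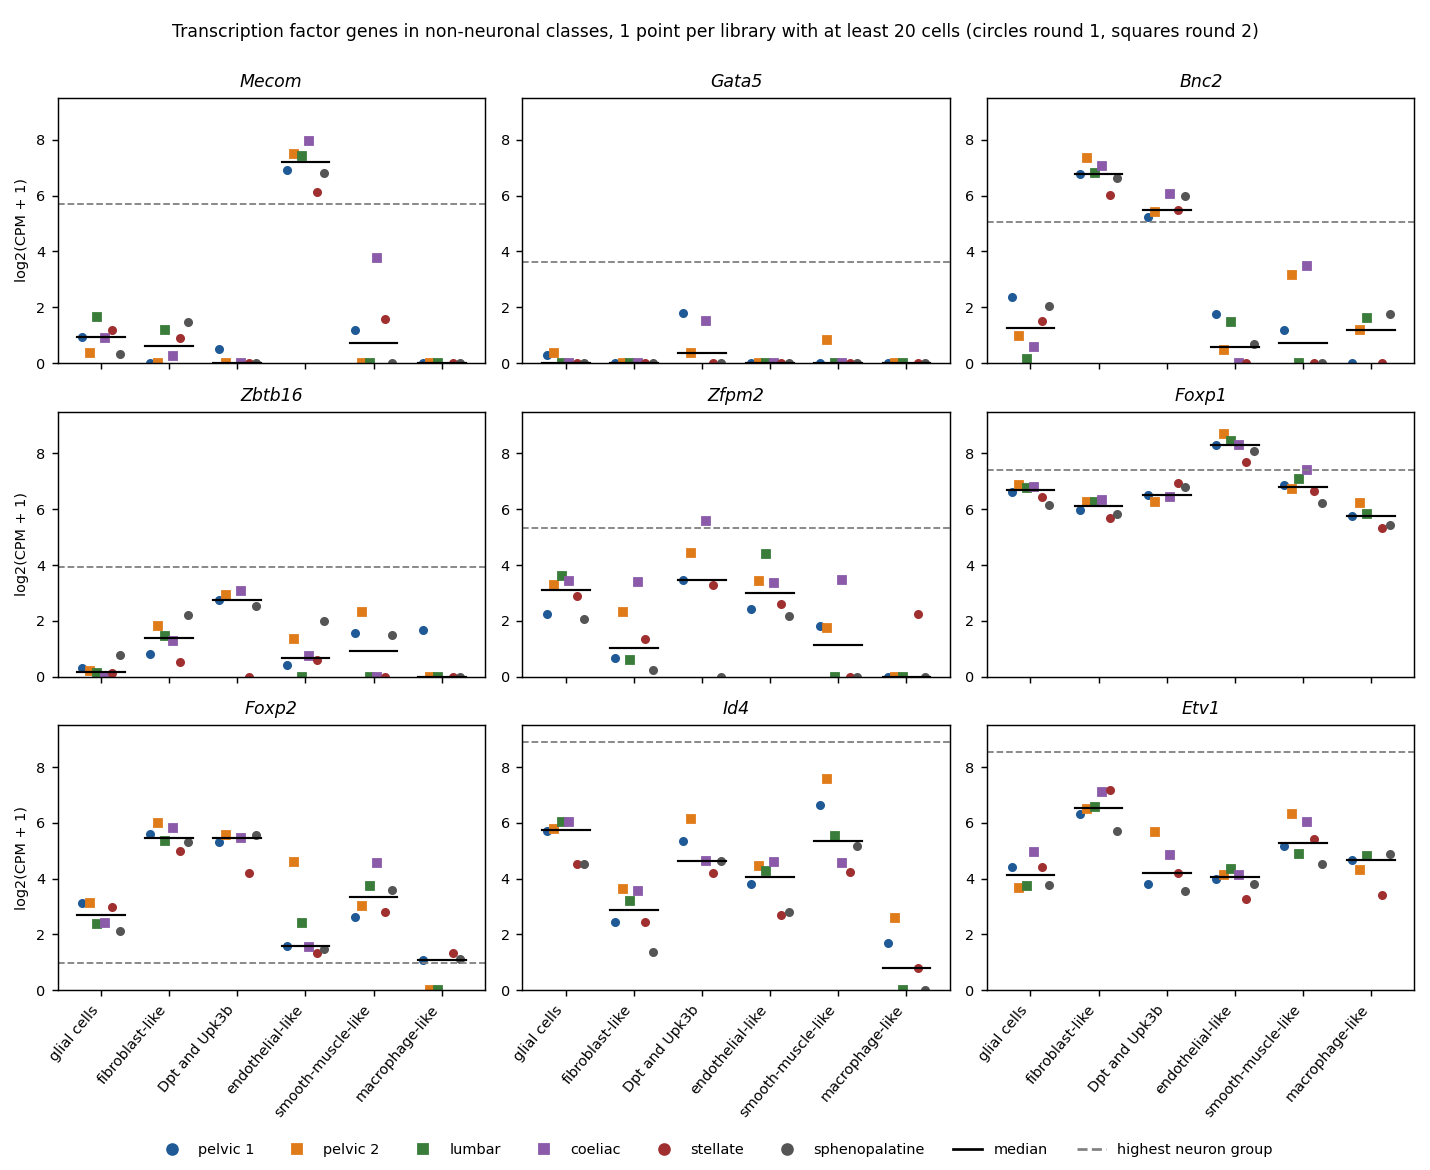
Level of each gene on a log2(CPM + 1) axis in 6 non-neuronal classes, 1 point per library with at least 20 cells; the black line is the median over libraries and the dashed line the highest neuron group. Endothelial-like cells lie above the dashed line for *Mecom* and *Foxp1* in all 6 libraries, and fibroblast-like cells for *Bnc2* and *Foxp2*.

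Neurons were compared with glial cells (defined by glial marker genes) of the same libraries, on counts summed per library, with edgeR's quasi-likelihood test and Benjamini-Hochberg adjustment over all genes. Because detection in pelvic neurons chose the genes, the comparison was also made, after the data had been seen, in the 4 libraries of other ganglia. These libraries are not independent of the choice either. The study's search compared neurons of pelvic clusters with neurons of these ganglia, and it lists *Zfpm2* and *Bnc2* by their patterns over them. It took up *Zbtb16* for expression in the sphenopalatine ganglion. In those 4 libraries, 33.9% of the 15222 genes tested were called higher and 34.9% lower in neurons, and of the 8 genes of the list that could be tested 2 were called higher and 2 lower, no more than this background. *Zbtb16* was higher in neurons (log2 difference 3.24, SE 0.49, adjusted p = 0.001951, in 4 of 4 libraries), and so was *Etv1* (1.09, SE 0.23, adjusted p = 0.007102, 4 of 4 libraries). Counts of *Zbtb16* were low, with 0 to 0.726 CPM in these glial cells and 11 UMIs in glial cells of all 6 libraries. Lumbar, coeliac and stellate neurons had 0.704, 0.501 and 0.303 CPM of it, and sphenopalatine neurons 7.67 CPM. *Foxp2* (-4.82, SE 0.38, adjusted p = 0.000198) and *Id4* (-1.90, SE 0.29, adjusted p = 0.001928) were lower in neurons, again in 4 of 4 libraries. *Gata5* had too few UMIs to be tested there. Neuronal transcripts were also counted in glial cells and differed between libraries: *Th* stood at 214.5 CPM in stellate glial cells (a UMI in 53.6% of them), at 10.3 to 35.9 CPM in pelvic, lumbar and coeliac ones and at 0.605 CPM in sphenopalatine ones. Their part in the differences between neurons and glial cells was not tested.

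With the pelvic libraries included (12 sums, with library as a term), 37.8% of 15607 genes were called higher and 37.2% lower in neurons. This fit uses the pelvic neurons in which the genes were chosen, so its values are a description for the 9 genes. *Zbtb16* (log2 difference 3.40, SE 0.42), *Etv1* (1.79, SE 0.40) and *Foxp2* (-4.50, SE 0.29) kept the direction of the 4 other libraries. *Gata5* (3.62, SE 0.50) passed the filter on low counts through pelvic_1 and pelvic_2 alone (2.72 and 3.32 CPM in neurons against 0.232 and 0.273 in glial cells), where its detection had chosen it, and no call is read from it. The 5 others did not pass, with adjusted p from 0.057 to 0.697 in edgeR. Some of them passed under another setting. *Bnc2* passed in edgeR without the stellate library (log2 difference 2.22, adjusted p = 0.0123) and with a stricter choice of glial cells (2.18, adjusted p = 0.0222), and in DESeq2 (1.73, adjusted p = 0.0115). *Id4* passed in edgeR without pelvic_1 (-1.41, adjusted p = 0.0336) or pelvic_2 (-1.44, adjusted p = 0.0127), and in DESeq2 (-1.06, adjusted p = 0.017). *Mecom* passed in edgeR with the stricter choice of glial cells alone (2.03, adjusted p = 0.0294), and its log2 difference ranged from -0.61 to 2.03 over 15 settings. The libraries parted for *Id4*: pelvic neurons had 53.1 and 83.3 CPM against 51.0 and 54.4 CPM in their glial cells, whereas neurons of the other ganglia had 4.52 to 19.5 CPM against 21.9 to 64.4 CPM. The pelvic sums pool clusters that differ, and P3-like neurons alone had 3.50 and 2.12 CPM. Of the 17 relatives, 12 could be tested over the 6 libraries and 5 were called higher (*Gata2*, *Gata3*, *Zfpm1*, *Id1*, *Etv5*) and 3 lower (*Prdm16*, *Id3*, *Zbtb20*) in neurons. Sums of glial cells were smaller than those of neurons, from 7331611 to 11256072 UMIs against 17981802 to 79172861.

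**Figure D5:**
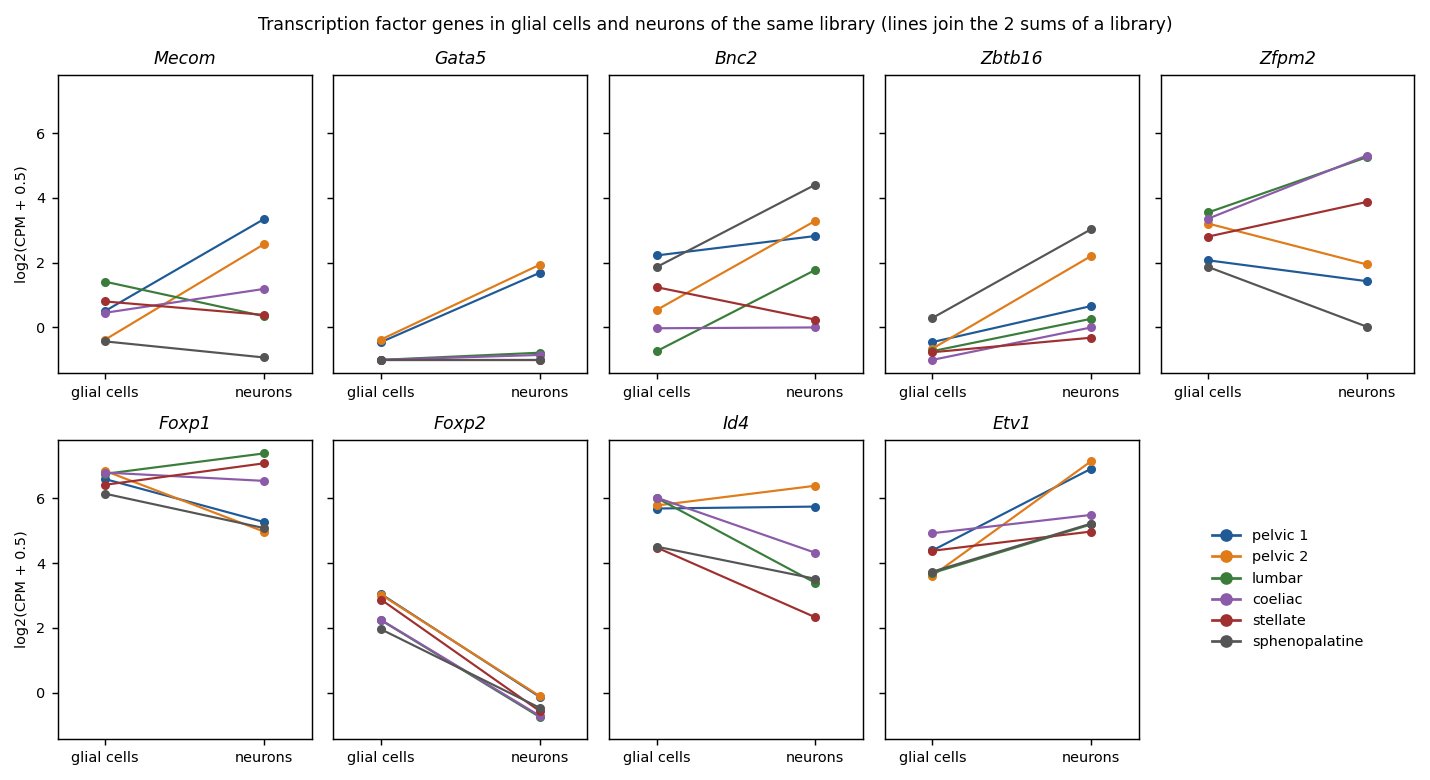
Level of each gene on a log2(CPM + 0.5) axis in glial cells and in neurons, with a line joining both sums of a library. *Zbtb16* and *Etv1* rise from glial cells to neurons in all 6 libraries and *Foxp2* falls in all 6. *Zfpm2* falls in both pelvic libraries and rises in the 3 sympathetic ones. *Id4* falls in the 3 sympathetic libraries, rises in pelvic_2 and is nearly level in pelvic_1.

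Glial and fibroblast-like cells of the pelvic ganglion were compared with those of the other ganglia, with sequencing round as a term. In glial cells 0.029% of 13795 genes were called higher in the pelvic libraries and 0% lower. None of the 7 genes that could be tested was called by edgeR or DESeq2, and 1 had an unadjusted p below 0.05 in edgeR, *Foxp2* (log2 difference 0.71, SE 0.28, adjusted p = 0.468). In fibroblast-like cells 0.543% of 12518 genes were called higher and 0.527% lower, and again none of the 7 that could be tested was called by edgeR or DESeq2, with 0 below an unadjusted p of 0.05 in edgeR. *Bnc2* had 161.8 CPM in pelvic_2 against 110.7 and 132.0 CPM in the other libraries of its round, and 108.7 CPM in pelvic_1 against 64.4 and 97.4 CPM, a log2 difference of 0.36 (SE 0.19, adjusted p = 0.417 in edgeR). *Foxp2* had the same order in both rounds (0.36, SE 0.17, adjusted p = 0.368 in edgeR). The difference of the pelvic contrast between the 2 cell types was called for 0 of 8 genes, with 0.661% of 14228 genes called and 1 of the 8 at an unadjusted p below 0.05 in edgeR. Of the relatives, 0 of 11 tested in glial cells and 0 of 12 in fibroblast-like cells were called by edgeR (0 and 5 at an unadjusted p below 0.05). The difference of the pelvic contrast, fibroblast-like minus glial cells, was called for 1 of 12 relatives, *Gata2* (2.97 in log2, SE 0.51, adjusted p = 0.0487 in edgeR). Neither contrast of *Gata2* was called alone in edgeR. It was 1.73 in fibroblast-like cells (adjusted p = 0.413) and -1.30 in glial cells (adjusted p = 0.6515). Glial levels of *Gata2* ran from 3.75 CPM in sphenopalatine to 38.9 CPM in stellate cells. In glial cells *Id4* was above both other libraries of round 1 (51.0 against 22.1 CPM on average) and below both of round 2 (54.4 against 64.2 CPM).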

How the data were processed

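Droplet single-cell libraries were counted by the authors with Cell Ranger 6.0.1 on mm10, per the submitters' processing notes, and the deposited counts are UMIs per gene and droplet, not normalized. The strand setting was not given in the sources used here, and *Mecom*, *Gata5* and *Id4* overlap antisense genes of the matrices. Retained droplets had 1500 to 11000 genes (both excluded) and less than 15% of UMIs from mitochondrial genes. Only the markers that select neurons and glial cells were normalized with sctransform 0.4.2 (R 4.3.3). Clusters, levels and tests were computed from the counts without it. Neurons had a mean of 4 neuronal markers above 3 and of 5 glial markers below 1.15. Clustering used 3000 variable genes without the 9 genes, 50 components, a mutual nearest neighbours correction and Louvain at 0.3. A cluster was named where at least 3 fixed markers reached 2 times the mean over clusters for 1 class alone, a rule set after values were seen, and it gave 5 named pelvic clusters in place of 4, P1-like being split. The genes and lists were chosen with earlier results of these data known. All 9 genes are named, and for each the 3 genes of highest Pearson correlation over 14 neuron sums among genes reaching 10 CPM, except where a gene is not reported here. Counts summed per library were tested with edgeR 4.0.16 and DESeq2 1.42.0 after tests on simulated data; libraries are the replicates, and p-values measure the spread between libraries of different ganglia. No doublets were removed in the values given, and removal was an alternative, as were other scalings, filters, clusterings and omitted libraries. The SE beside a log2 difference was worked back from the edgeR test, as its absolute value over the square root of the F statistic. Positions are from GENCODE M21 (GRCm38).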

Additional observations from a re-analysis of the deposited data

Results flagged for a closer look

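For 2 genes the difference of neurons and glial cells of the same library had opposite signs in the pelvic and the sympathetic libraries. A rule on the sign alone brought them up for a closer look. *Zfpm2* was lower in neurons than in glial cells in both pelvic libraries, by a mean log2 difference of -0.95, and higher in all 3 sympathetic libraries (lumbar, coeliac and stellate), by 1.57. *Id4* was lower in neurons in the 3 sympathetic libraries (-2.16). Its mean in the pelvic libraries was 0.33, from 0.61 in pelvic_2 and 0.06 in pelvic_1, where neurons and glial cells were nearly level. The difference between these groups of libraries was not tested. Pelvic neuron sums pool clusters: P3-like neurons alone had 14.4 and 29.9 CPM of *Zfpm2* against 3.71 and 8.73 CPM in pelvic glial cells, and 3.50 and 2.12 CPM of *Id4* against 51.0 and 54.4 CPM, which are the directions of the sympathetic libraries.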

How the results depend on the processing

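The number of genes with the same highest pelvic cluster in both libraries (8) ranged from 7 to 9 over the alternatives and has no value when a pelvic library is left out, since it needs both. The number with a pelvic cluster highest (7) ranged from 6 to 7, and the number higher outside neurons was 4 in all. The Gng8-high cluster was not recovered with the 9 genes kept for clustering, without the mutual nearest neighbours correction, without the exclusion by glial markers or with selection on log counts, and *Etv1* was then highest in P3-like neurons. Without the correction the P4-like cluster was lost too, and with it the highest cluster of *Id4* and *Bnc2*. The highest cluster of *Zbtb16* also moved. It was P1-like in pelvic_1 and P4-like in pelvic_2 with the 9 genes kept or without the exclusion by glial markers. Without the correction it was P1-like in both libraries. With neurons thinned to 4000 UMIs it was Gng8-high in pelvic_1 and P4-like in pelvic_2. Of neurons against glial cells, 4 of the 9 genes were called over all libraries, against 37.8% of all genes higher and 37.2% lower. The 4 include *Gata5*, from which no call is read. Without the library term 2 were called, *Etv1* and *Foxp2*, since *Zbtb16* and *Gata5* were not tested there. *Zbtb16* was called in all 14 settings in which it could be tested. The count was 4 to 5 with each library left out, and *Gata5* was lost with DESeq2. In fibroblast-like cells the count became 1 without the filter on low counts (*Mecom*, at 0 UMIs in both pelvic libraries, adjusted p = 0.0337 in edgeR). Calls over all genes in glial cells were 4, against 189 with DESeq2, 185 without the filter, 0 without the round term, and 0 to 370 with 1 library left out (370 without sphenopalatine). In fibroblast-like cells they were 134, against 330, 1240 and 0, and 0 to 535 with 1 library left out (535 without sphenopalatine). The causes were not tested. Between ganglia, no paired analysis was possible because the groups compared share only replicate number 1; neurons and glial cells were paired by library. At 4000 UMIs per neuron, *Gata5* and *Zfpm2* were found in 7 and 2 neurons of their highest cluster in pelvic_1 and pelvic_2. *Foxp2* was found in 0.45% of P2-like neurons of both libraries pooled and in no other named cluster. The thinning used for the alternatives, a separate random draw, found *Foxp2* in none of the named clusters.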
